A study of Mus musculus with 6 samples.

Results

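Imprinted genes, which are read from only the paternal or only the maternal chromosome, were followed in right and left cervical motoneuron regions of mouse embryos. The set was a list of 36 genes, of which 18 were grouped as paternally expressed and 14 as maternally expressed. A further 4 (Gnas, Grb10, Inpp5f and H13) were grouped as expressed from one or the other parent depending on tissue or transcript. That last group need not hold every member whose imprint depends on tissue. The groups are labels, and which parental copy was read in these regions was not measured. Members were all probe sets whose annotation gave exactly one of these symbols, and 33 of the 36 genes had at least 1, for 90 probe sets among 45037 without controls (33 of 18193 genes named by a probe set of their own). H19, Rtl1 and Zrsr1 had no probe set of their own. Regions were cut by laser capture from 3 littermate E11.5 embryos that carried HB9::GFP, a green fluorescent reporter driven by a motoneuron promoter. The right and the left GFP-positive region of each embryo were pooled over the same sections and hybridised separately, which gave 3 right and 3 left pools. All 6 pools share the reporter, the litter and the stage, and the labels give no treatment or mutation for any pool. A captured region can hold cells between and beside the labelled neurons, and in such bulk samples fewer cells of a type and less RNA per cell cannot be told apart. The question of the design was whether right and left motoneuron regions differ in their transcripts.

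Imprinting begins in the germ line, where methylation is placed on imprinting control regions of the egg or sperm genome and is then held through the divisions of the embryo. ZFP57, which binds a methylated hexamer, and TRIM28 protect these marks after fertilisation, and CTCF binds the unmethylated copy at some domains. Many members lie in clusters in which a non-coding RNA from one parent and protein-coding genes from the other answer to a single control region. Many act on fetal growth, on placenta and muscle, and on brain development. The array reads the summed transcript of both chromosomes, so none of the values below tells the parental alleles apart.

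Promoter windows of 4 members are shown because these genes both had a tested probe set over 2-fold higher in the right than in the left pool of embryo 1 and held the ZFP57 hexamer. The windows run from 250 bases before to 50 bases after a RefSeq gene start in assembly GRCm38.p6, 5′ to 3′ on the gene's strand. The motif searched was TGCCGC on both strands, and the capitals mark its matches, which read GCGGCA here because they lie on the reverse strand. Igf2, Mest and Grb10 had other windows as well, and for each only 1 that held a match is shown. The other windows of Igf2 and Grb10 held no match. The Plagl1 window is chr10:13090582-13090881 on the plus strand, that of Igf2 is chr7:142661222-142661521 on the minus strand, that of Mest is chr6:30737800-30738099 on the plus strand, and that of Grb10 is chr11:12037371-12037670 on the minus strand.
Plagl1: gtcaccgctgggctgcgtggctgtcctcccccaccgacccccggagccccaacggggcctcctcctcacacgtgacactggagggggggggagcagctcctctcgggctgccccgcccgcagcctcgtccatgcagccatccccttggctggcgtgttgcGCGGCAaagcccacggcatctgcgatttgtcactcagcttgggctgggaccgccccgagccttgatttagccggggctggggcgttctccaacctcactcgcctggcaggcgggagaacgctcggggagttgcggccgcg
Igf2: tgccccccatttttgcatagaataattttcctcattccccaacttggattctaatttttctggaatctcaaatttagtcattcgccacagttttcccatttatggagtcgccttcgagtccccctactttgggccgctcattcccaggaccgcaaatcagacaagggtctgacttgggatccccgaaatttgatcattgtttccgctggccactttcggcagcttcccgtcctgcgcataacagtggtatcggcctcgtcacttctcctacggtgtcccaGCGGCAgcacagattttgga
Mest: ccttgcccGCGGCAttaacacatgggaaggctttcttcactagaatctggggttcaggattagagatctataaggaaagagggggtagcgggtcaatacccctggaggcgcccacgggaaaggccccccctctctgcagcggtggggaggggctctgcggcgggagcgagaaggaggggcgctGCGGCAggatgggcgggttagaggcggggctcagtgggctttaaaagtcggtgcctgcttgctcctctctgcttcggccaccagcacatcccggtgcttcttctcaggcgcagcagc
Grb10: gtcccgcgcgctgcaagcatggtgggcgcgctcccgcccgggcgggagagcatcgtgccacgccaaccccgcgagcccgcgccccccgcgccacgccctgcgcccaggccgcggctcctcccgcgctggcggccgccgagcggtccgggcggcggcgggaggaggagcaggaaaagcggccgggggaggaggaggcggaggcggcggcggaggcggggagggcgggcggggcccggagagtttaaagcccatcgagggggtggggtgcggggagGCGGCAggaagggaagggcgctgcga

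The match lies before the start in Plagl1, after it in Igf2 and Grb10, and the 2 matches of Mest both lie before it. Of the 36 members, 30 were matched to the RefSeq table, with 48 windows in all. The hexamer occurred in 12 of these 48 windows (25%), against 11.6% of the 32851 windows of all genes. By gene it occurred in 11 of 30 members (36.7%), against 13.1% of 27025 genes: Calcr, Copg2, Grb10, Igf2, Meg3, Mest, Nap1l5, Nnat, Plagl1, Snrpn and Zim1. Member windows were also richer in CG pairs, with a median of 14.5 per window against 7 over all windows, and a CG pair is part of the hexamer. The windows of Asb4, Gnas and Rian, which also had a probe set over 2-fold higher on the right in embryo 1, held no match. Sgce had such a probe set too, but no window. A match is a run of letters and not a shown binding site, and no match says only that the letters are absent from that window.

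Signals are linear MAS5 intensities, Affymetrix's summary of the probes of a probe set, and the 6 arrays were alike in scale. Their median signals lay between 99.6 and 118, and 59.9% to 61.7% of probe sets were under 200 on each array. All 12 motoneuron markers were measured at 200 or more in at least 1 pool, among them Mnx1, the gene whose promoter drives HB9::GFP. None of their 23 probe sets met the fold rule given below, which 2.4% of all probe sets met on the right and 1.55% on the left. By markers of mesenchyme and muscle, the right pool of embryo 1 stood apart. The summed signal of 20 mesenchyme and sclerotome markers was 22377, 4342 and 3650 in the right pools of embryos 1, 2 and 3, against 3617, 2384 and 3680 in the left pools. Of these 20 genes 18 had their highest signal in the right pool of embryo 1, while 6, among them the sclerotome factors Pax1 and Pax9, were under 200 in every pool. The summed signal of 13 skeletal muscle markers was 7765, 883 and 493 in the right pools, against 551, 373 and 578 in the left pools, and 11 of the 13 were highest in the right pool of embryo 1. Myog, a myogenic regulator, had a signal of 347 there and 4.05 to 56.9 in the other 5 pools. Motoneuron markers summed to 49738, 34190 and 29117 in the right pools, against 49665, 38840 and 29265 in the left pools. They were thus close between the sides of embryos 1 and 3, higher on the left in embryo 2, and highest in embryo 1. Erythroid markers had sums of 36623, 22724 and 32504 in the right pools, against 20391, 24990 and 37659 in the left pools. Their highest sum was in the left pool of embryo 3, but within embryo 1 the right pool was well above the left.

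Across the imprinted genes, no right-left difference passed the test, and most measured ratios were small. A probe set was tested where its highest signal over the 6 arrays was 200 or more, which kept 70 of 90 probe sets and 28 of 33 genes. In limma's moderated test with embryo as a term and Benjamini-Hochberg adjustment over 21853 probe sets, 0 of the 70 passed an adjusted p of 0.05, and the share over all probe sets was 0%. At an unadjusted p under 0.05, 5 of the 70 were higher on the right (7.14%), against 1.92% of all probe sets, and 0 were higher on the left, against 1.48% of all. These 5 were both tested probe sets of Igf2, both of Plagl1 and 1 of Gnas, so that they came from 3 genes. The count on the right rested on the fit, and was 2, 9 and 10 without embryo 1, 2 or 3, against 2.7%, 2.41% and 2.87% of all probe sets. It was 1, the dimmer Plagl1 probe set, without the embryo pairing (0.783% of all) and likewise with variances fitted without a trend (1.83% of all). The study's own fold rule needs right-left ratios that all point one way and that exceed 1.5-fold (0.58 in log2) both on average and in 2 or more embryos. The study also kept only transcripts called present (detected) in every embryo, a filter that was not applied here. Without that filter, the fold rule was met by 2 probe sets on the right (2.86%), of Plagl1 and Gnas, against a background of 2.4%, and by 0 on the left, against 1.55%. The share meeting the fold rule was thus near that of all probe sets. For a single probe set, the exact sign-flip test over 3 pairs cannot give a two-sided p below 0.25, and the number of arrays limits the precision of every ratio, so that a probe set that missed the threshold was not shown to be alike on both sides.

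Taking the brightest tested probe set of each gene, the mean log2 right over left (a difference between sides, not a level) was within 0.2 of 0 in 21 of 28 imprinted genes (75.0%), against 57.7% of 10539 tested genes. Ratios spread less at high signal, where many members lie. Among genes with a mean signal of 2000 or more, the shares were 76.5% of 17 imprinted genes and 81.7% of all 2427. The median over the 28 genes was 0.10, against 0.01 over all genes. It was 0.14 for the 14 genes grouped as paternally expressed, 0.12 for the 10 grouped as maternally expressed, and 0.00 for the 4 grouped by tissue or transcript. That last median was -0.19 without embryo 1, and 0.19 when all tested probe sets of a gene were averaged. Within embryos the median over the 28 genes was 0.29 in embryo 1, -0.02 in embryo 2 and 0.03 in embryo 3. Over all tested genes it was 0.042, 0.006 and -0.002. The array medians were 112, 117 and 111 in the right pools, against 99.6, 104 and 118 in the left pools. The paternal genes gave 0.32, -0.04 and 0.05, and the maternal genes 0.16, 0.00 and 0.03, so that the higher right-hand medians of both classes came from embryo 1. Without embryo 1 the paternal median was -0.09 and the maternal median 0.01. With each array scaled to the same median, the paternal median was 0.06 and the maternal median 0.03. The highest of the 6 pools was the right pool of embryo 1 in 13 of 28 imprinted genes (46.4%), against 24.0% of all tested genes.

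**Figure D1:**
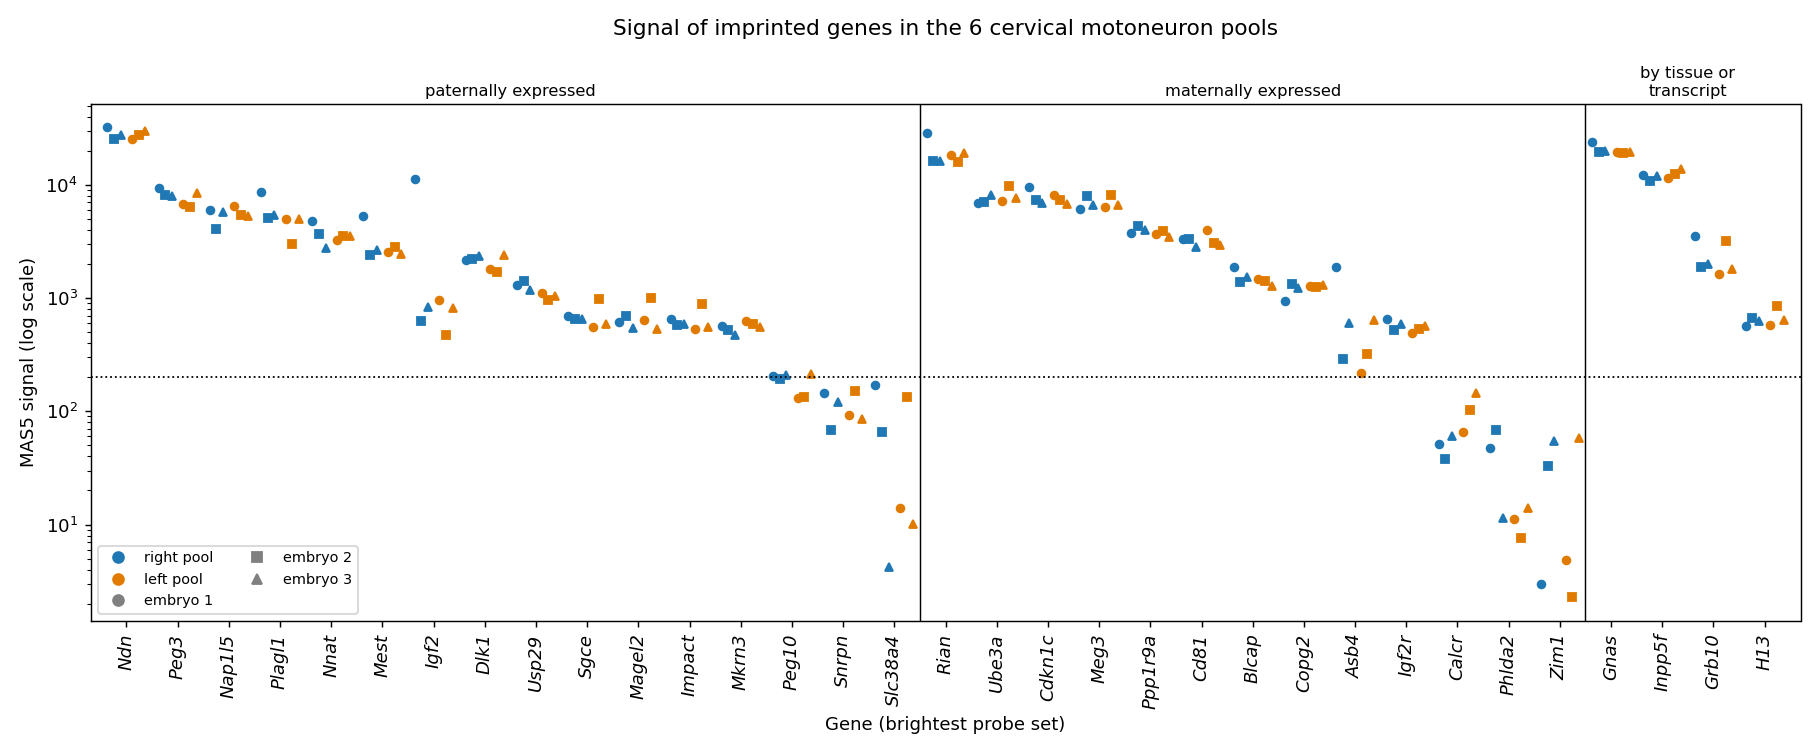
MAS5 signal (log scale) of the brightest probe set of each of the 33 measured imprinted genes, grouped by parental class. Blue symbols are the 3 right pools and orange symbols the 3 left pools, with the symbol giving the embryo, and the dotted line marks a signal of 200. In most genes the 6 points lie close together, whereas the blue circle of embryo 1 stands above the rest for Igf2, Asb4 and Mest. Heights of different genes cannot be compared as amounts.

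Signals of different probe sets depend on their probes, so levels are compared below only between pools and within a probe set. The genes are taken by imprinted domain, beginning with the growth factor domain of chromosome 7.

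Igf2, a paternally expressed growth factor of the fetus, had the largest mean right-left ratio of the 70 tested probe sets, and that ratio came from embryo 1. Its brighter probe set (1415931_at) had signals of 11311, 633 and 841 in the right pools of embryos 1, 2 and 3, against 956, 469 and 815 in the left pools. Embryo 1's right pool was far above the other 5, and the groups overlapped. The log2 ratios were 3.56, 0.43 and 0.04, with a mean of 1.35 ± 1.93 (SD, n = 3 embryos) and a limma SE of 0.56. Its adjusted p in limma was 0.974. The other probe set (1448152_at) had 2511, 351 and 313 in the right pools, against 332, 248 and 315 in the left pools, with a mean log2 ratio of 1.14. Both probe sets therefore placed the same pool highest. Without embryo 2 the limma call changed for Igf2, with an adjusted p of 0.000273 for 1415931_at, where the 2 remaining ratios were 3.56 and 0.04.

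H19, the maternally expressed non-coding RNA next to Igf2, shares its only probe set (1448194_a_at) with the microRNA Mir675, which is cut from the H19 transcript. This joint probe set, which is outside the 70, had signals of 9638, 1471 and 2715 in the right pools, against 2145, 1215 and 2656 in the left pools. Its log2 ratios were 2.17, 0.28 and 0.03. Again the right pool of embryo 1 was the highest, although Igf2 and H19 are read from opposite parental chromosomes. Igf2r, the maternally expressed receptor that clears Igf2 from the cell surface, had smaller ratios. Its brighter probe set (1424111_at) had 656, 520 and 593 in the right pools, against 492, 535 and 572 in the left pools. The right pool of embryo 1 was the highest here too, by a log2 ratio of 0.41 in that embryo, and the mean was 0.14. The other probe set (1424112_at) ran the opposite way in embryo 1, with log2 ratios of -1.11, 0.52 and -0.04 and a mean of -0.21. Of 14 other genes measured in the insulin-like growth factor pathway, 11 were tested with 32 probe sets, of which 0 met the fold rule and 0 passed limma. Over all probe sets 2.4% met the fold rule on the right and 1.55% on the left, and 0% passed limma. The median log2 ratio of these 11 genes was 0.27, and within embryos 1, 2 and 3 it was 0.52, 0.18 and -0.01, so that their values too were more right-sided in embryo 1. The 2 brightest of them were Igfbp5, a binding protein with a mean log2 ratio of 0.19, and Igf1r, the receptor that signals for Igf2, with a mean of 0.01.

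Plagl1, a paternally expressed zinc finger factor that slows cell division, had both of its tested probe sets higher on the right in all 3 embryos. The brighter probe set (1426208_x_at) had signals of 8570, 5131 and 5379 in the right pools, against 5030, 3001 and 5036 in the left pools. Every right pool lay above every left pool, although embryo 3 differed little, with log2 ratios of 0.77, 0.77 and 0.10. The mean was 0.55 ± 0.39 (SD, n = 3), with adjusted p = 0.974 in limma. The dimmer probe set (1450533_a_at) had 843, 444 and 351 in the right pools, against 218, 284 and 221 in the left pools. The groups did not overlap, and its log2 ratios were 1.95, 0.65 and 0.67. The mean was 1.09 ± 0.75 (SD, n = 3), again with adjusted p = 0.974 in limma. This probe set met the fold rule and also passed 1.5-fold in all 3 embryos, as 84 of all 21853 tested probe sets did. With 50 added to each signal it no longer met the fold rule, and without embryo 1 its mean was 0.66. The third probe set (1438588_at) was at 85.7 or below and was not tested. The suffix _x_at marks a probe set whose probes may also match other transcripts.

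**Figure D2:**
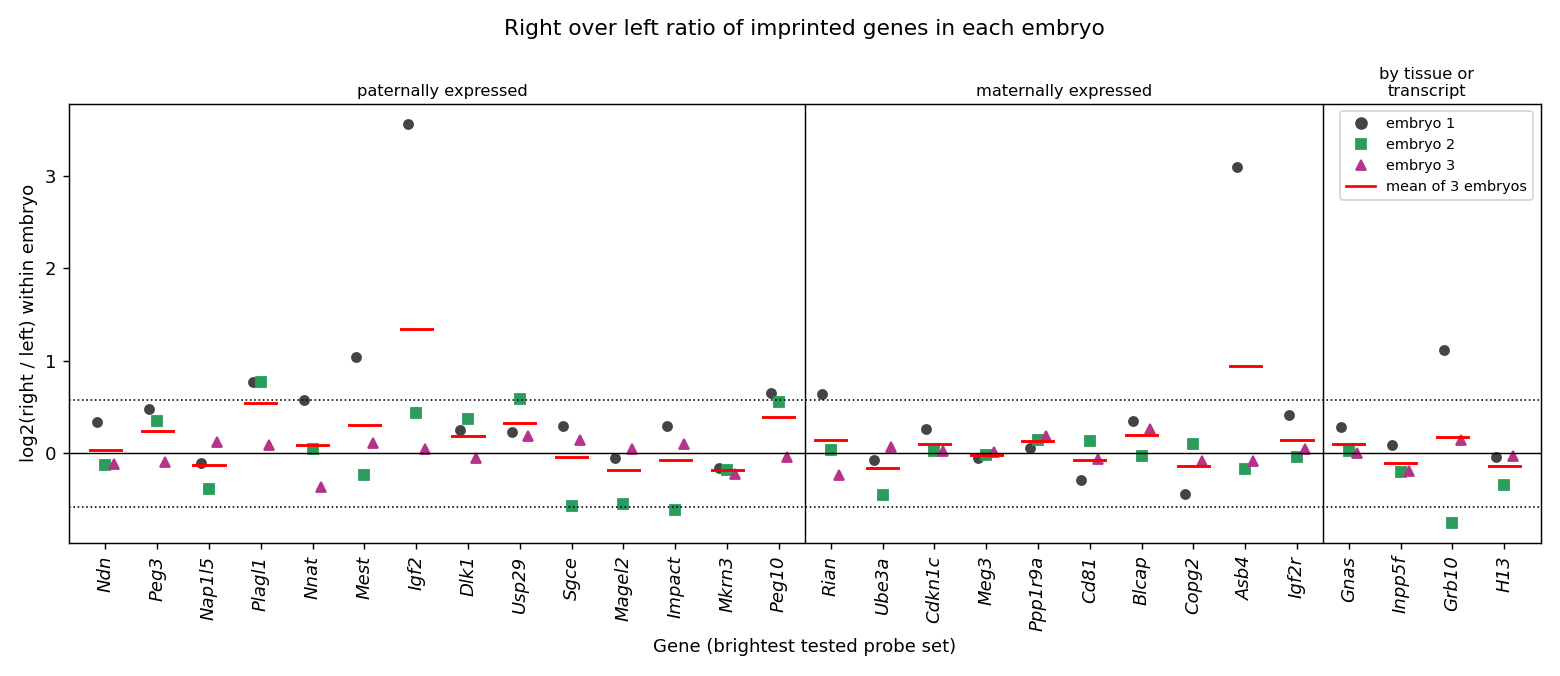
Log2 right over left within each embryo for the brightest tested probe set of the 28 tested imprinted genes, with the symbol giving the embryo and the red bar the mean of 3 (dotted lines at 0.58 in log2 either way). The ratios of embryo 1 reach 3.56 for Igf2 and 3.10 for Asb4, while those of embryo 3 lie between -0.36 and 0.27, and Plagl1 lies above 0 in all 3 embryos.

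In the neighbouring Kcnq1 domain, Cdkn1c, a maternally expressed inhibitor of cyclin-dependent kinases that helps neurons leave the cell cycle, was at similar levels on both sides. Its signals were 9652, 7403 and 6967 in the right pools, against 8057, 7294 and 6814 in the left pools, with a mean log2 ratio of 0.10 ± 0.14 (SD, n = 3). In each embryo the right pool was slightly above the left, and embryo 1 was highest on both sides. Cd81, a tetraspanin of the same domain, had a mean of -0.07. Phlda2, which limits placental growth, was at 67.7 or below in all pools and was not tested.

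The Dlk1 and Meg3 domain of chromosome 12 holds paternal protein-coding genes and maternal non-coding RNAs. Dlk1, a transmembrane relative of Notch ligands, had a mean log2 ratio of 0.19, with signals of 2147, 2191 and 2335 in the right pools, against 1795, 1689 and 2419 in the left pools. The groups overlapped through embryo 3. Meg3, a maternal long non-coding RNA, was read by 11 tested probe sets, whose mean log2 ratios ran between -0.04 and 0.34. The brightest of these (1429256_at) had 6160, 8007 and 6676 in the right pools, against 6379, 8102 and 6587 in the left pools. Here right and left of each embryo nearly coincided, with embryo 2 highest on both sides, and the mean ratio was -0.02 ± 0.03 (SD, n = 3).

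Rian, a second maternal non-coding RNA that hosts small nucleolar RNAs, had 28424, 16165 and 16327 in the right pools, against 18183, 15776 and 19164 in the left pools, at its brightest probe set (1427580_a_at). The right pool of embryo 1 was the highest, the other 5 lay close together, and the mean log2 ratio was 0.15 ± 0.45 (SD, n = 3). A dim Rian probe set (1428055_at) had 177, 227 and 206 in the right pools, against 18.3, 193 and 184 in the left pools, so that its ratio of 3.27 in embryo 1 came from a low left pool and not from a high right one. Its mean was 1.22, which had the opposite sign to the -0.18 of another Rian probe set (1440001_at).

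In the Peg3 domain of chromosome 7, Peg3, a paternally expressed zinc finger protein of brain and placenta, gave mean log2 ratios of 0.24, 0.18 and 0.05 at its 3 tested probe sets. The brightest had 9457, 8095 and 7926 in the right pools, against 6774, 6369 and 8482 in the left pools, and the groups overlapped through the left pool of embryo 3. Usp29, a paternal ubiquitin protease gene that shares its promoter with Peg3, had 1295, 1427 and 1183 in the right pools, against 1104, 951 and 1039 in the left pools (1419237_at). Its groups did not overlap, and the log2 ratios of 0.23, 0.58 and 0.19 averaged 0.33 ± 0.22 (SD, n = 3), with adjusted p = 0.974 in limma. A dimmer Usp29 probe set gave -0.02, with ratios of opposite sign in embryos 1 and 2. Zim1, a maternal zinc finger gene, was at 58.0 or below in every pool.

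In the Peg10 domain of chromosome 6, Asb4, a maternally expressed ankyrin repeat protein of the ubiquitin system, had the highest mean ratio among the brightest tested probe sets of the maternal genes. Its tested probe set (1433919_at) had 1866, 288 and 608 in the right pools, against 218, 323 and 642 in the left pools. The right pool of embryo 1 was the highest, the left pool of the same embryo was the lowest, and in embryos 2 and 3 the left pool was slightly above the right. The log2 ratios were 3.10, -0.17 and -0.08, with a mean of 0.95 ± 1.86 (SD, n = 3), with adjusted p = 0.974 in limma. Without embryo 2 limma's adjusted p was 0.0309, where the remaining ratios were 3.10 and -0.08. Without embryo 1 the mean of Asb4 was -0.12. Among the paternal genes of the domain, Sgce, the epsilon-sarcoglycan of the cell membrane, gave -0.04 at its brighter probe set. Its dimmer one (1443518_at) gave 0.38, with log2 ratios of 1.74, -0.38 and -0.23. Peg10, derived from a retrotransposon, gave 0.39 with all signals at 213 or below. Ppp1r9a, which encodes the actin-binding neurabin of synapses, gave 0.13 ± 0.07 (SD, n = 3) at its brightest probe set, where the right pools had 3781, 4337 and 3966, against 3643, 3912 and 3468 in the left pools. Its probe sets disagreed, with means between -0.47 (1457603_at) and 0.78 (1458942_at) over the 4 tested. Calcr, the calcitonin receptor, was at 144 or below and was not tested.

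The Snrpn domain of chromosome 7, which is known for the Prader-Willi and Angelman syndromes in people, had small right-left ratios at its bright probe sets. Ndn, a paternally expressed protein of postmitotic neurons, was read by 5 tested probe sets, whose mean log2 ratios were 0.04 to 0.11. The brightest had 32233, 25450 and 27797 in the right pools, against 25390, 27725 and 29981 in the left pools. The right pool of embryo 1 was the highest and the left pool of embryo 1 the lowest, and with each array scaled to the same median the mean of 0.04 turned to -0.05. Magel2, a paternal relative of Ndn, had a mean of -0.18, and Mkrn3, a paternal ubiquitin ligase gene known for the timing of puberty, also had a mean of -0.18. Mkrn3 was lower on the right in all 3 embryos, by ratios of -0.16, -0.17 and -0.22, with signals of 566, 525 and 475 in the right pools, against 632, 592 and 552 in the left pools. Its groups overlapped, and it did not pass limma's threshold.

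Ube3a, the ubiquitin ligase that neurons express from the maternal chromosome, gave -0.15 at its brightest probe set, with 6877, 7065 and 8068 in the right pools, against 7238, 9673 and 7682 in the left pools. Its second probe set (1425206_a_at) was lower in every right pool than in any left pool, with a mean of -0.15, and did not pass limma's threshold. The 3 other tested Ube3a probe sets had means of 0.02, 0.19 and 0.51, so the probe sets of this gene disagreed in sign. Snrpn, a splicing protein of neurons, had only 1 probe set to itself, at 151 or below, but 6 probe sets were annotated jointly to Snurf and Snrpn, which lie on the same transcript. The brightest of the joint probe sets (1415895_at) had 13367, 10970 and 12121 in the right pools, against 13217, 11930 and 11827 in the left pools, with a mean log2 ratio of -0.02.

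Among the remaining paternally expressed genes, Mest, which encodes a hydrolase-like protein of mesoderm, had 5265, 2419 and 2634 in the right pools, against 2548, 2851 and 2436 in the left pools. The right pool of embryo 1 alone was high, and the log2 ratios were 1.05, -0.24 and 0.11, with a mean of 0.31 ± 0.66 (SD, n = 3) that was -0.06 without embryo 1. Nap1l5, a nucleosome assembly protein relative, had 6005, 4100 and 5777 in the right pools, against 6460, 5365 and 5316 in the left pools, with a mean of -0.12. Nnat, a small proteolipid of developing brain, had a mean of 0.09 with a right side that was above the left in embryo 1 and below it in embryo 3. Impact, which restrains the kinase that shuts down translation when amino acids are short, gave -0.07 at its brighter probe set, and its dimmer one gave 1.27 because the left pool of embryo 2 was at 14.6. Slc38a4, an amino acid transporter, was at 170 or below at both of its probe sets and was not tested. Among the remaining maternal genes, Blcap, a small membrane protein next to Nnat, had a mean of 0.20, and Copg2, a coat protein of transport vesicles next to Mest, had -0.14.

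Of the 4 genes grouped by tissue or transcript, Gnas encodes the stimulatory G protein and several transcripts of different parental origin. Its brightest probe set (1450186_s_at) was even, with 23646, 19575 and 19695 in the right pools, against 19430, 19186 and 19649 in the left pools, and a mean log2 ratio of 0.11 ± 0.15 (SD, n = 3). A dim Gnas probe set (1443375_at) met the fold rule. It had 521, 299 and 545 in the right pools, against 128, 171 and 532 in the left pools, so the sides differed in embryos 1 and 2 and not in embryo 3. Its log2 ratios of 2.03, 0.81 and 0.03 averaged 0.96 ± 1.00 (SD, n = 3), with adjusted p = 0.974 in limma. Both pools of embryo 3 were high, so the groups overlapped. Without embryo 1 its mean was 0.42, without embryo 2 it was 1.03, and in neither case was the fold rule met. With 2 embryos left the rule asks both to exceed 1.5-fold, so the ratio of 0.03 in embryo 3 settled this in advance.

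Grb10, an adaptor that dampens insulin and growth factor receptors, is expressed from the paternal chromosome in neurons and from the maternal one in most other tissues. At its brightest probe set (1425458_a_at) it had 3514, 1888 and 1995 in the right pools, against 1615, 3177 and 1797 in the left pools. The right side was above the left in embryo 1 and below it in embryo 2, and the log2 ratios of 1.12, -0.75 and 0.15 averaged 0.17 ± 0.94 (SD, n = 3). A second Grb10 probe set (1425457_a_at) had 1195, 1091 and 871 in the right pools, against 451, 872 and 865 in the left pools, with a mean of 0.58. In embryo 2 the 2 probe sets ran in opposite directions. Inpp5f, a lipid phosphatase gene with a paternal brain transcript, had 12134, 10846 and 12006 in the right pools, against 11422, 12496 and 13651 in the left pools, with a mean of -0.10. H13, a signal peptide peptidase gene with parent-specific transcript ends, had 562, 667 and 627 in the right pools, against 578, 848 and 638 in the left pools, with a mean of -0.14.

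**Figure D3:**
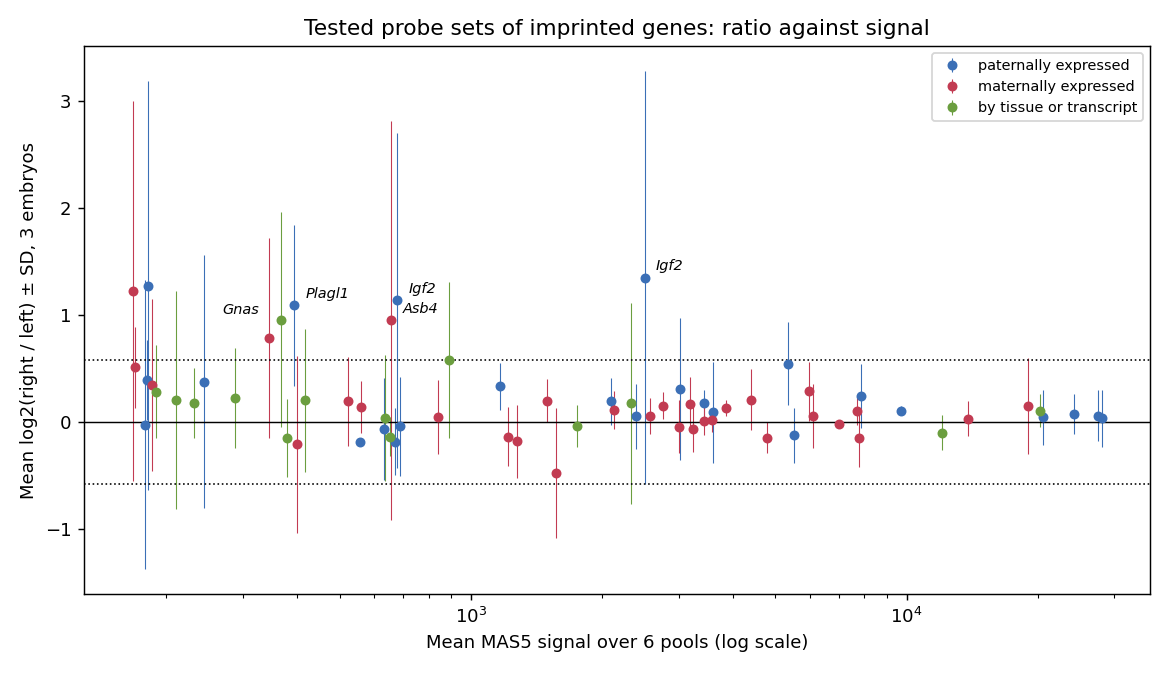
Mean log2 right over left against mean signal (log scale) for each of the 70 tested probe sets of imprinted genes, with bars of 1 SD over 3 embryos and dotted lines at 0.58 in log2 either way. The 35 probe sets with a mean signal of 2000 or more lie between -0.15 and 1.35, and the 2 that met the fold rule, of Plagl1 and Gnas, have a mean signal under 500.

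The ratios spread with signal. Among the 17 tested members with a mean signal under 500, mean log2 ratios ran between -0.21 and 1.27, and both probe sets that met the fold rule were in this range, where 7.17% of all probe sets met it on either side. Among the 35 with a mean signal of 2000 or more, 0 met it, against 0.13% of all. Igf2 (1415931_at) supplied the highest mean of that bright range, 1.35, which was also the highest of all 2427 genes whose brightest tested probe set was in it. Of the 17 imprinted genes in that range 13 were within 0.2 of 0 (76.5%), against 81.7% of the 2427. Within single embryos, 10 of the 70 probe sets (14.3%), from 8 genes, were over 2-fold higher on the right in embryo 1, against 9.45% of all probe sets. These genes were Asb4, Gnas, Grb10, Igf2, Mest, Plagl1, Rian and Sgce. In the same embryo 3 (4.29%) were over 2-fold higher on the left, against 7.29% of all. Embryo 2 had 3 on the right (4.29%) and 0 on the left, against 7.89% and 5.4% of all, and embryo 3 had 0 on either side, against 0.856% and 1.25% of all.

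The right pool of embryo 1 was the highest pool in 13 of the 28 tested imprinted genes, among them Igf2, Asb4, Mest, Grb10 and Plagl1. It was also the highest for the joint Mir675 and H19 probe set and for the mesenchyme and muscle marker sums. In embryos 1, 2 and 3 the median log2 ratio of the tested mesenchyme and sclerotome markers was 2.74, 0.91 and -0.07. At the brightest probe sets, Igf2 had 3.56, 0.43 and 0.04 in the same embryos. In embryo 2 Plagl1 and the joint probe set had 0.77 and 0.28, while Asb4, Mest and Grb10 had -0.17, -0.24 and -0.75. Of the 21 tested mesenchyme and sclerotome probe sets 8 met the fold rule on the right, and of 13 muscle probe sets 3 did, against 2.4% of all. None in either list passed limma's adjusted threshold, against 0% of all. The part of these cells in the ratios of Igf2, Asb4, Mest, Grb10, Plagl1 and the joint probe set was not tested. Neuronal markers had smaller median ratios. The median log2 ratio in embryo 1 was 0.10 for pan-neuronal markers and -0.04 for motoneuron markers, against 0.29 for the 28 imprinted genes. For the other lists it was 0.32 for neural progenitor, 1.03 for erythroid and -0.03 for endothelial markers.

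**Figure D4:**
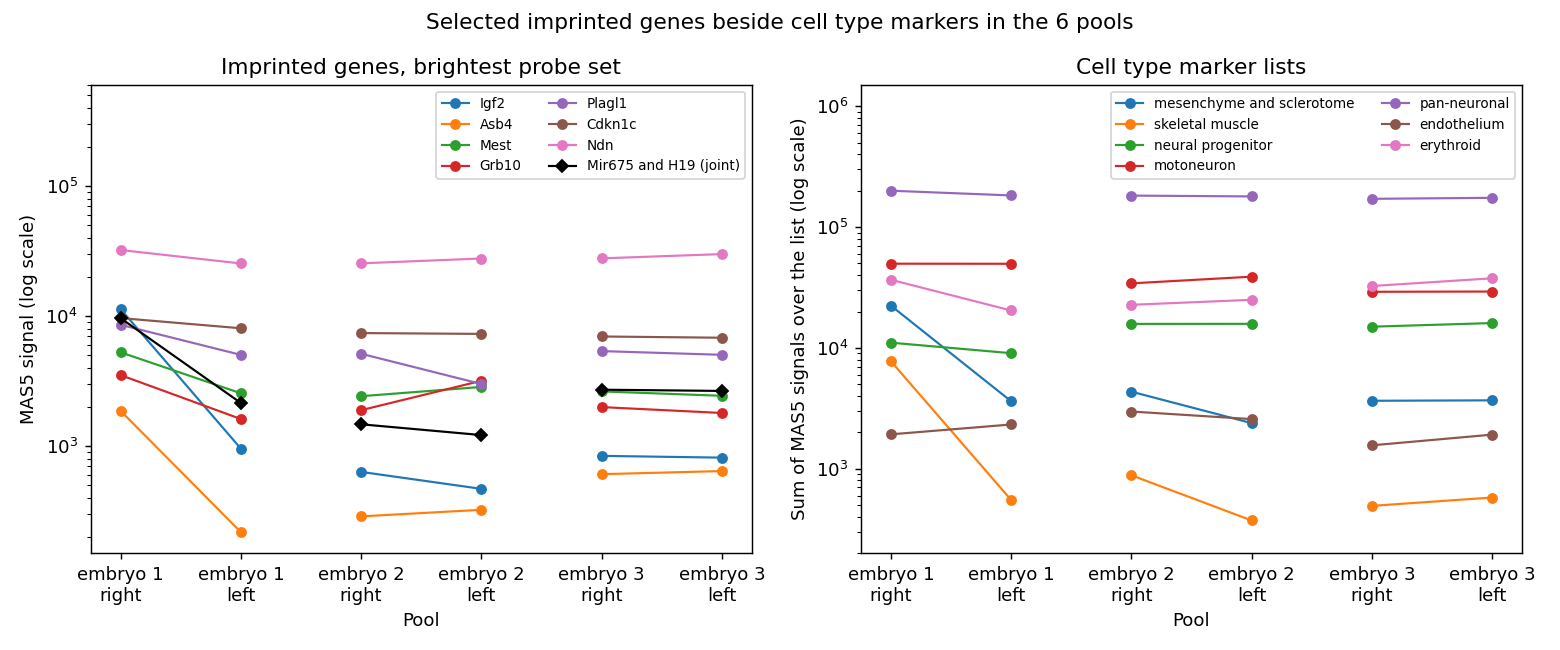
MAS5 signals in the 6 pools (log scale), with lines joining the right and left pool of an embryo. The left panel shows the brightest probe set of 7 imprinted genes and the joint Mir675 and H19 probe set, and the right panel the summed signals of 7 marker lists. Igf2, Asb4 and the joint probe set share with the mesenchyme and muscle sums a high right pool in embryo 1, and Ndn and Cdkn1c stay within a narrow band.

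Littermates were compared in the same fit, by limma's F test of the embryo term. Of the 70 member probe sets 0 passed an adjusted p of 0.05, against 0.27% of all probe sets, and 5 (7.14%) had an unadjusted p under 0.05, against 15.3% of all. These 5 were both Igf2 probe sets, 1 each of Plagl1 and Impact, and 1 of Rian (1452899_at). For Igf2 only the right pool of embryo 1 was high. For Impact (1446750_at) only the left pool of embryo 2 was low, at 14.6 against 161 in its right pool. These Igf2 and Impact values thus rested on a single pool and not on both pools of an embryo. The Rian probe set had 16158, 11187 and 14728 in the right pools, against 13893, 12018 and 14908 in the left pools, with embryo 2 lowest on both sides. Leaving out the right pool of embryo 1, an alternative chosen after seeing the data, 6 member probe sets passed, of Rian (2), Asb4, Gnas, Sgce and Impact, against 10.3% of all probe sets.

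The genes that hold imprints in place were measured beside the members. Of 22 listed, 21 had a probe set and 19 were tested with 42 probe sets, of which 0 passed limma, 1 met the fold rule on the right and 1 on the left. Over all tested probe sets 2.4% met the rule on the right and 1.55% on the left, and 0% passed limma. The 2 brightest were Zfp445, a zinc finger protein that guards imprints, and Trim28, the corepressor that ZFP57 recruits. Trim28 had a mean log2 ratio of -0.02. The probe set on the left side of the rule was a second one of Zfp445, with 645, 363 and 1112 in the right pools, against 1583, 1181 and 1246 in the left pools, and a mean of -1.05. The brightest Zfp445 probe set gave only -0.29, with 7023, 5635 and 7258 in the right pools, against 7945, 8696 and 7623 in the left pools. On the right it was a dim probe set of Uhrf1, which brings the maintenance methyltransferase to replicated DNA, with 218, 315 and 157 in the right pools, against 83.5, 184 and 121 in the left pools. The brightest Uhrf1 probe set had a mean of 0.31. Of 39 other imprinted genes 31 had a probe set and 18 were tested with 29 probe sets. Of these, 1 met the fold rule on the right and 0 on the left, against the same 2.4% and 1.55% of all. The 1 was that of Ampd3, a deaminase of AMP, with a mean of 0.87. The 2 brightest were the nucleosome assembly protein gene Nap1l4, with a mean of -0.07, and Klhdc10, with a mean of 0.19.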

How the data were processed

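RNA of laser-captured right and left GFP-positive cervical regions of 3 littermate E11.5 embryos (6 pools) was amplified, biotin-labelled and hybridised to Affymetrix Mouse 430 2.0 arrays. The deposited values are linear MAS5 signal intensities that the authors computed per array in Affymetrix Expression Console, and no columns were left unused (0). MAS5 scales each array on its own, and detection calls were not used here. Of 45101 probe sets, 64 controls were left out, and those with a highest signal of 200 or more were tested (21853). Probe sets were named from the platform annotation, and 8 annotated jointly to a member and another gene were kept apart. Intensities were taken to log2, and side was tested with embryo as a term by limma 3.58.1 (lmFit, eBayes with trend) in R 4.3.3, with Benjamini-Hochberg adjustment. The study's fold rule was applied to ratios within embryos. Pools of 1 embryo come from the same sections and are pairs. The correlations of their deviations from the side means were 0.241, 0.215 and 0.495. Limma's p-values rest on the right-left differences of 3 littermates. The variance of each probe set is drawn towards a trend with signal over all tested probe sets. A p-value therefore does not measure the spread of its own probe set alone. The fit was run on simulated data, in which limma missed the smallest shift added, of 2-fold, and part of the larger ones.

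All 36 members are accounted for. All 6 signals were to be given for members that met the fold rule, had an unadjusted p under 0.05 for side or an adjusted p under 0.05 for embryo, for the 4 brightest genes of the paternal and maternal classes, and for the class that depends on tissue or transcript. They are also given for other members, picked after their values were seen. Members, marker lists, pathway lists and rules were chosen with earlier results of these data known. Promoters came from RefSeq (GRCm38.p6), and 6 members had no entry. Figures were drawn with matplotlib 3.10.9 in Python 3.11.15. Alternatives covered normalization, an added offset, the signal limit, the fold limit, the variance model, the embryo term and each embryo left out.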

Additional observations from a re-analysis of the deposited data

How the results depend on the processing

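Precision was limited by the 3 pairs, and the ratios of dim probe sets spread widely. The count of imprinted probe sets passing limma for side was 0 as reported and 0 under every alternative but the omission of embryo 2. With each embryo left out in turn it ranged from 0 to 2, the 2 being Igf2 and Asb4 without embryo 2 (0.101% of all probe sets). With an embryo left out, the fold rule asked both remaining embryos to exceed 1.5-fold, unlike the rule over 3 embryos. The count meeting the fold rule on the right, 2 as reported, ranged from 1 (without embryo 1, 0.695% of all probe sets) to 5 (without embryo 3, 4.66% of all). It was 1 with 50 added to each signal, where Plagl1 was lost, 1 with 1.5-fold asked for in all 3 embryos, and 0 beyond 2-fold. On the left it was 0, and 1 (Calcr) with no signal limit. The maternal median log2 ratio of 0.12 was 0.0321 with arrays scaled to the same median and ranged from 0.00927 to 0.135 with an embryo left out. The paternal median of 0.14 ranged from -0.0893 to 0.316, and the median of the class that depends on tissue or transcript from -0.19 to 0.06. The count differing between embryos, 0, ranged from 0 to 3, with 3 without embryo 1 (5.15% of all probe sets) and 2 without embryo 2 (6.2% of all), and was 6 without the right pool of embryo 1 (10.3% of all), an alternative added after seeing the data. The cause of these shifts was not tested beyond the samples or limits that each alternative removes. Over all probe sets, those meeting the fold rule on the right numbered 524 as reported and 131 to 2805 under the alternatives of scaling, offset, signal limit and omitted embryos. Without the replicate block the limma count for side was 0, and the count on the right at an unadjusted p under 0.05 was 1 instead of 5. Of 339 alternative values of 31 single probe sets, 336 moved by less than the spread between embryos and 3 by more. Most of the 336 could not have moved by more. Signal limits, the replicate block and the variance trend leave a ratio unchanged, and omitting an embryo always shifts the mean by less than that spread. Only quantile normalization, median scaling and the offset could exceed it, so the count is no measure of robustness. The sign of the mean turned in 15 of the 339, 9 of these without embryo 1, among them Asb4, Grb10, Mest, Rian, Ndn and Nnat. The 3 that moved by more, with arrays scaled to the same median, were Meg3 (-0.10), Ppp1r9a (0.05) and Mkrn3 (-0.27). A filter on present calls was not run.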
